A study of Homo sapiens with 12 samples.

Results

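Sterol and fatty acid synthesis was followed through 34 genes, taken by symbol out of 58290 gene IDs in the deposited tables. They comprise 5 regulators, 21 genes of the sterol branch (8 for the mevalonate and isoprenoid steps, and 13 for the later steps and sterol transport) and 8 genes that make, elongate and desaturate fatty acids. All 34 passed the filter on low counts. The cells were HEK-293T, a transformed human embryonic kidney line, and each held a CIRTS effector, a programmable RNA-binding protein assembled from human protein parts and directed to a transcript by a guide RNA. Polyadenylated RNA was sequenced in 12 libraries, 3 in each of 4 groups. Cells with CIRTS-3 YTHDF2, named after an m6A reader that recruits the deadenylation machinery, received a guide against SMARCA4 (YTHDF2-SMARCA4) or a non-targeting guide (YTHDF2-NT). Cells with CIRTS-12 Nuclease, which carries an RNA-cutting domain, likewise received a guide against SMARCA4 (nuclease-SMARCA4) or a non-targeting guide (nuclease-NT). The series terms the samples of a group biological replicates, and the labels give no culture, transfection or batch details, so an effector cannot be told apart from a batch that went with it.

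Cholesterol and fatty acids are both built from acetyl-CoA, and in animal cells both branches are driven by the SREBP transcription factors. SREBF2 encodes SREBP-2, which acts mainly on sterol genes, and SREBF1 encodes SREBP-1, which acts mainly on fatty acid genes. SCAP carries the SREBP precursors to the Golgi, where they are cut and freed, and when sterols are plentiful INSIG1 and INSIG2 hold SCAP in the endoplasmic reticulum. INSIG1 is itself an SREBP target, so its mRNA is often read beside those of the enzymes.

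Library depth ranged from 9207196 to 18047859 estimated counts, and the 34 genes together held 0.335% (YTHDF2-NT 1) to 0.443% (YTHDF2-SMARCA4 1) of them. SMARCA4 mRNA itself was at 243, 210 and 221 CPM (counts scaled to a common library total) in YTHDF2-SMARCA4, against 302, 235 and 250 CPM in YTHDF2-NT. It was at 239, 250 and 220 CPM in nuclease-SMARCA4, against 225, 245 and 242 CPM in nuclease-NT. The guides' libraries overlapped with both effectors, and YTHDF2-NT 1 was the highest library. Of the markers used to check the cell line, VIM was at 629 to 769 CPM and NEFM at 144 to 287 CPM, KRT8, KRT18 and INA were also detected in every library, and the kidney lineage factors PAX2 and LHX1 were at 1.36 to 7.84 CPM. Of the markers of other cells, HBB was at 0 in all libraries, and PTPRC and TTR were at or below 0.143 CPM. CD14 was at 0.406 to 1.22 CPM and ALB at 0.0704 to 0.487 CPM, and both were above 0 in every library. CYP3A4 was at or below 0.332 CPM and DCN at or below 0.788 CPM. The collagen gene COL1A1 was at 8.62 to 12.8 CPM, while its partner COL1A2 was at or below 0.278 CPM. The 3 YTHDF2-NT libraries were scattered, at 56.2, −29.1 and 13.7 on a first principal component with 19.8% of the variance.

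The genes of the pathway were well expressed. On the length-corrected TPM scale, 33 of the 34 lay above the median of the genes tested, 8.58 TPM, and STARD4, a sterol carrier, lay below it at a mean of 6.87 TPM over the 12 libraries. FDPS, the synthase that makes farnesyl diphosphate at the branch point of sterols and isoprenoids, was highest with 304 ± 22.8, 269 ± 16.2, 296 ± 27.2 and 294 ± 14.7 TPM in YTHDF2-SMARCA4, YTHDF2-NT, nuclease-SMARCA4 and nuclease-NT (SD, n = 3 each). ACLY, which supplies cytosolic acetyl-CoA from citrate, followed at a mean of 135 TPM. The stearoyl-CoA desaturase SCD was at 133 TPM, the sterol isomerase EBP at 123 TPM and the squalene synthase FDFT1 at 121 TPM. The spread between libraries did not separate these 4 levels, since the lowest library of each lay below the mean of the others.

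Within each branch the levels differed widely from step to step. In the mevalonate and isoprenoid part, GGPS1 (geranylgeranyl diphosphate synthase, 102 TPM) and ACAT2 (the cytosolic acetoacetyl-CoA thiolase, 85.7 TPM) stood above IDI1 (isopentenyl diphosphate isomerase, 55.2 TPM) and PMVK (39.9 TPM). HMGCS1 (HMG-CoA synthase, 23.2 TPM), the decarboxylase MVD (18.8 TPM) and the mevalonate kinase MVK (15.1 TPM) were the lowest there. Of the enzymes that turn squalene into cholesterol, the oxidosqualene cyclase LSS was lowest at 11.8 TPM and HSD17B7, a keto-reductase that also acts on oestrone, was at 30.2 TPM. Between them lay TM7SF2 at 27.2 TPM, a sterol reductase of the same step as LBR, which is also a receptor of the nuclear lamina and was at 81.4 TPM. The methylsterol oxidase MSMO1 (37.3 TPM), the sterol desaturase SC5D (42.6 TPM), the reductase DHCR7 (51.1 TPM), the lanosterol demethylase CYP51A1 (52.3 TPM), the dehydrogenase NSDHL (53.4 TPM) and the squalene epoxidase SQLE (59.7 TPM) lay higher. Among fatty acid genes, FASN, the synthase, was at 52.9 TPM and ACACA, the acetyl-CoA carboxylase, at 28.9 TPM. The desaturases FADS1 and FADS2 were at 41.9 and 36.9 TPM, and the acetyl-CoA synthetase ACSS2 and the elongase ELOVL6 at 13.9 and 13.8 TPM. INSIG1 at 101 TPM was the most abundant regulator, against 15.3 TPM for INSIG2, 26.5 TPM for SCAP, 25.3 TPM for SREBF2 and 15.8 TPM for SREBF1.

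**Figure D1:**
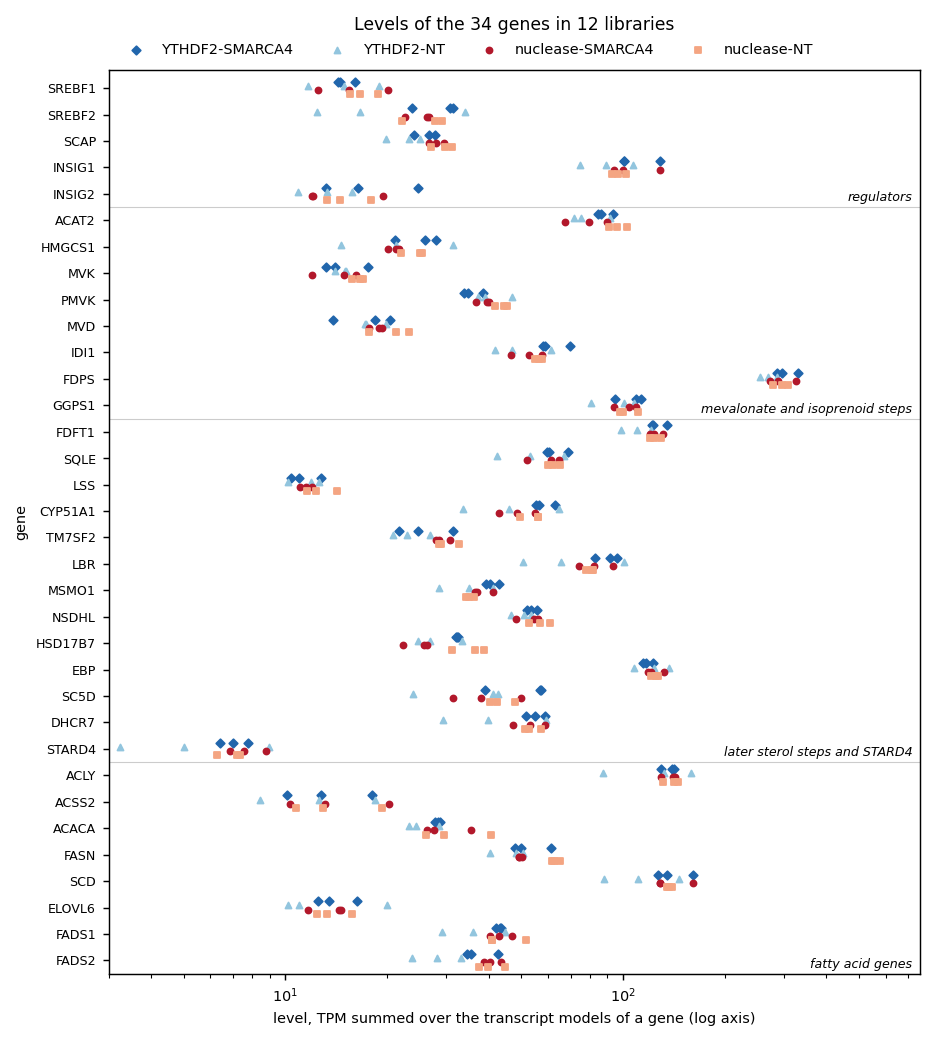
Level of each of the 34 genes in TPM (log axis) in every library, with one symbol per library and one colour per group, genes in pathway order from top to bottom. The levels run over a wide range between genes, from STARD4 to FDPS, and the 4 groups overlap for most genes.

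TPM values of these genes rest on how reads were shared among transcript models. All counts of PMVK and SCD fell on their 1 protein-coding model, whereas models of the processed-transcript type took 82.5 to 89.2% of the counts of EBP and 72.1 to 82.6% of those of ACAT2. For FDPS, protein-coding models held 29.1 to 50% of the counts, and a retained-intron model of 680 bases held 42.9% of its TPM. Without length correction FDPS was at a mean of 184 CPM, below SCD (657 CPM) and ACLY (474 CPM). Models of the nonsense-mediated-decay type held 40.4 to 86.5% of the counts of ACSS2. Of the 31-base words of CYP51A1 transcripts, 77.6% also occur in transcripts named LRRD1, and 41.7% of those of ACAT2 occur in transcripts named SOD2, so the split of reads between these genes is uncertain. Exons on the opposite strand overlap several members, among them RUSC1-AS1 over 18.6% of the exonic bases of FDPS, AC114947.2 over 15.0% of HMGCS1 and IDI2-AS1 over 14.8% of IDI1. No source used here states the strand setting of the counting, and reads of such pairs may not have been told apart.

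The region before the start of a gene was available for 30 of the 34 (RefSeq, GRCh38.p14, 250 bases before to 50 after the start). Each was searched on both strands for the sterol regulatory element (SRE) written TCACNCCAC, for the CCAAT box (CCAAT), which binds NF-Y, for the GC box (GGGCGG), which binds Sp1, and for the E-box CACGTG. NF-Y and Sp1 are factors known to bind beside SREBPs. The SRE was found in 1 of the 30, SREBF2, and in 1.15% of 27305 promoters. SQLE, FDFT1, ACAT2 and FASN had no window and were not searched. Only the first listed start of a gene was used. The window of IDI1 (chr10:1056655-1056954) lay outside its GENCODE 29 gene (chr10:1039152-1049170). So did that of GGPS1 (chr1:235326966-235327265), whose gene lies at chr1:235327350-235344532. The windows of SCAP, PMVK, MVK, SC5D, EBP, DHCR7, CYP51A1, ACLY, ACSS2, ELOVL6, FADS1 and FADS2 lay wholly inside their genes. The shares given here rest on these windows, and whether their starts are used in these cells was not tested. A CCAAT box was found in 72.2% of 18 sterol genes and 42.9% of 7 fatty acid genes, against 35.7% of all promoters. A GC box was found in 83.3% of the sterol genes and 85.7% of the fatty acid genes, against 44.6% of all promoters, and an E-box in 11.1% of the sterol genes and in none of the 7 fatty acid genes, against 7.43%. The windows of the 4 genes on which the results below turn are shown, with matches in capitals. They are SREBF2 (chr22:41832855-41833154, plus strand), INSIG1 (chr7:155297628-155297927, plus strand), HSD17B7 (chr1:162790452-162790751, plus strand) and SC5D (chr11:121292521-121292820, plus strand).
SREBF2: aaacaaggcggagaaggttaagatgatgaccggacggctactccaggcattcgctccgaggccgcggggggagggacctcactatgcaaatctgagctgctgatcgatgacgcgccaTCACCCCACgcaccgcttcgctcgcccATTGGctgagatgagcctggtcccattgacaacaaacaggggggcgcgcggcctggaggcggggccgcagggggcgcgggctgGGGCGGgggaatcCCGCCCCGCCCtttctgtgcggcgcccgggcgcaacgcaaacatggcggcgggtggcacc
INSIG1: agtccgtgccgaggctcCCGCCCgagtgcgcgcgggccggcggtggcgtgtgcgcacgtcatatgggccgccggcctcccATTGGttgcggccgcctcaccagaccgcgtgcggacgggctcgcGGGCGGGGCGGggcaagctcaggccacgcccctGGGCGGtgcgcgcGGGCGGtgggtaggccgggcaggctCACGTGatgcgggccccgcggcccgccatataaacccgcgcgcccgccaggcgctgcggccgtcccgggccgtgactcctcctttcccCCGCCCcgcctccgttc
HSD17B7: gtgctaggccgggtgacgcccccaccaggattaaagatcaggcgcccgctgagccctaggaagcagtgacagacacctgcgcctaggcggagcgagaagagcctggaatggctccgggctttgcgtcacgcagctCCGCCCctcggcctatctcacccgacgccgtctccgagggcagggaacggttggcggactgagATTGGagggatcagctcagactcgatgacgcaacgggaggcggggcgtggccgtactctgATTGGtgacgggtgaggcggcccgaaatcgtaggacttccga
SC5D: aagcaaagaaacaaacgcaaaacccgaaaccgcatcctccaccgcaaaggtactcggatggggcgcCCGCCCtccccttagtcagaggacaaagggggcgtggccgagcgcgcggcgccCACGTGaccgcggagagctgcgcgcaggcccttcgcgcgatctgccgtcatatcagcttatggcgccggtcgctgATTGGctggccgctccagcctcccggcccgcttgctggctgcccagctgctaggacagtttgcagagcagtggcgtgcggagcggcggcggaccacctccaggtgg
In SREBF2 the SRE begins 133 bases before the start, with a CCAAT box in reverse orientation after it and 3 GC boxes nearer the start. INSIG1 holds 6 GC boxes, of which a pair overlap, 1 CCAAT box and 1 E-box. HSD17B7 holds 2 CCAAT boxes and 1 GC box, and SC5D 1 of each with an E-box between them. A match is a description of these letters and shows no binding in these cells. A missing match covers only these spellings and windows and does not show that a gene lacks the element.

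With the SMARCA4 guide, none of the 34 genes passed the test with either effector. The test was edgeR's quasi-likelihood test with Benjamini-Hochberg adjustment over 16297 genes, called at an adjusted p below 0.05. In nuclease-SMARCA4 over nuclease-NT, 0 of 34 were called, against 0.00614% of all genes tested. In YTHDF2-SMARCA4 over YTHDF2-NT, 0 of 34 were called, against 0% of all genes. Without adjustment, 4 of the 34 had p below 0.05 in the nuclease comparison, against 10.9% of all genes, and 3 in the YTHDF2 comparison, against 6.82% of all genes. DESeq2 called 1 member, HSD17B7, in the nuclease comparison, against 0.859% of all genes, and 0 in the YTHDF2 comparison, against 0.00614%. The differences were also bounded. The 95% interval of the fold change lay within 2-fold in either direction for all 34 genes in both comparisons, and within 1.5-fold for 33 with the nuclease and 31 with YTHDF2. These intervals rest on a spread shared by all groups, and the YTHDF2-NT libraries varied more than the others.

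The 3 libraries of each guide did not overlap for 11 of the 34 genes in the nuclease comparison (7 higher and 4 lower with the SMARCA4 guide), against 25.1% of all genes. They did not overlap for 9 in the YTHDF2 comparison, all 9 higher with the SMARCA4 guide, against 9.27% of all genes, of which 699 were higher and 811 lower. These 9 were SC5D, INSIG2, DHCR7, MSMO1, IDI1, FADS2, HSD17B7, SCAP and FADS1. For a single gene, complete separation of 3 libraries from 3 corresponds to p = 0.1 in an exact two-sided permutation test, the smallest value it can give.

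**Figure D2:**
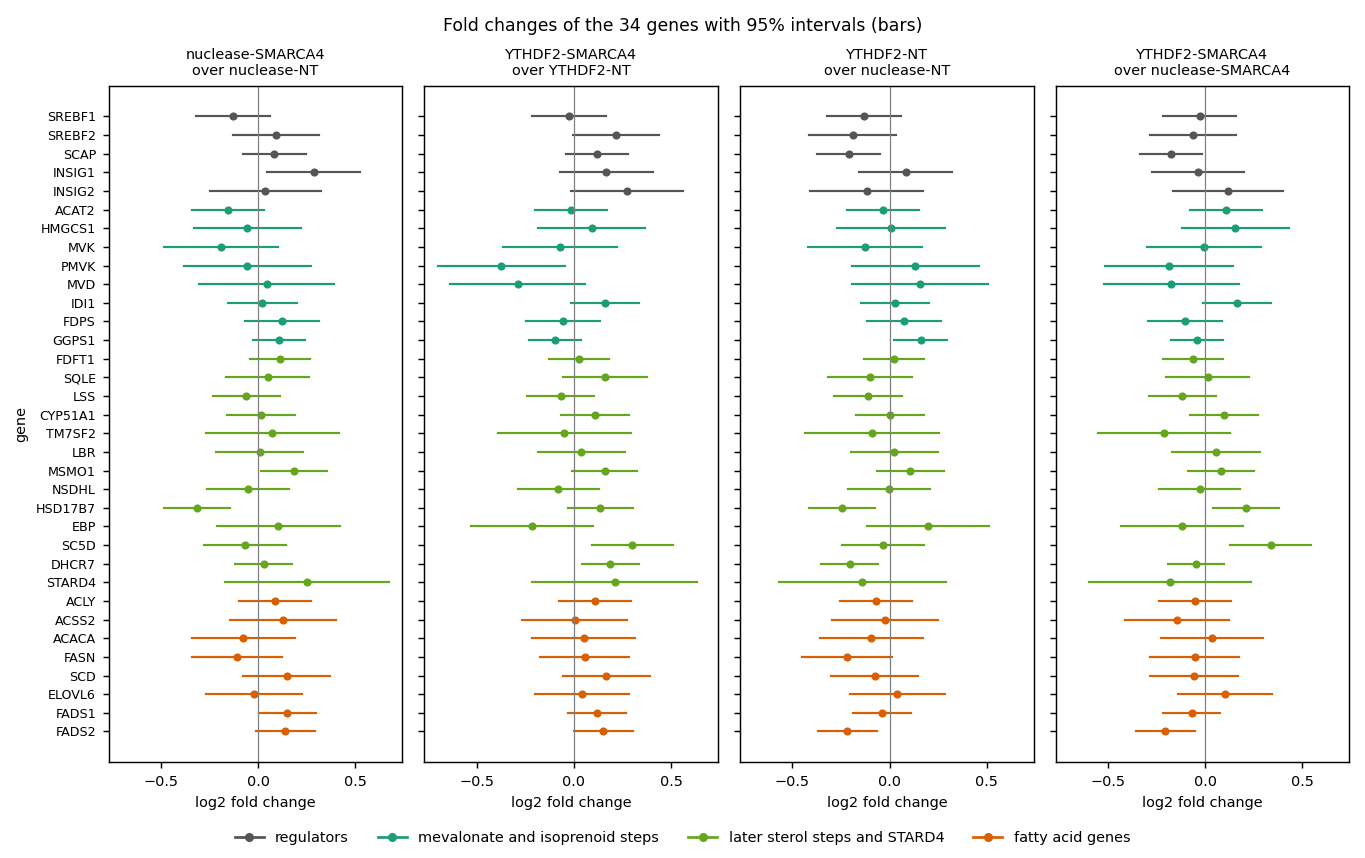
Log2 fold change (points) with its 95% interval (bars) for each of the 34 genes in the 4 comparisons, the first-named group over the second, coloured by role. All intervals lie within 1 log2 unit of 0, and the largest decrease is that of PMVK and the largest increase that of SC5D.

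Among the regulators, INSIG1 differed most by p between guides with the nuclease. It was at 329, 248 and 246 CPM in nuclease-SMARCA4, against 229, 214 and 231 CPM in nuclease-NT. All 3 libraries with the SMARCA4 guide were above all 3 with the NT guide, and the first of them was far above the other 2. The log2 fold change was 0.29 (SE 0.111, unadjusted p = 0.0222, adjusted p = 0.37), which did not pass the test. INSIG1 was at 303, 249 and 251 CPM in YTHDF2-SMARCA4, against 229, 251 and 234 CPM in YTHDF2-NT, and these groups overlapped. With YTHDF2, SREBF2 had the smallest p of the regulators. Its level was 101, 98.7 and 92.2 CPM in YTHDF2-SMARCA4, against 68.3, 98.4 and 84.3 CPM in YTHDF2-NT. The groups overlapped, and the low mean of YTHDF2-NT came mainly from its replicate 1. The log2 fold change was 0.22 (SE 0.104, adjusted p = 0.703). SREBF2 was at 105, 102 and 98.3 CPM in nuclease-SMARCA4, against 95.7, 93.5 and 97.0 CPM in nuclease-NT, a log2 fold change of 0.092 (adjusted p = 0.788). SREBF1 was at 20.5 ± 0.576 CPM in YTHDF2-SMARCA4, against 20.9 ± 0.961 CPM in YTHDF2-NT, and at 20.9 ± 1.58 CPM in nuclease-SMARCA4, against 22.8 ± 0.573 CPM in nuclease-NT (SD, n = 3 each), with log2 fold changes of −0.026 and −0.13 (adjusted p = 0.948 and 0.623).

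The sterol genes had values in both directions with the guide. Their median log2 fold change was 0.022 in nuclease-SMARCA4 over nuclease-NT (13 higher, 8 lower) and 0.026 in YTHDF2-SMARCA4 over YTHDF2-NT (11 higher, 10 lower), beside medians of −0.0003 and −0.0085 over all genes. With YTHDF2 the 2 parts of the branch differed in sign. The median was −0.063 for the mevalonate and isoprenoid steps (2 higher, 6 lower) and 0.11 for the later steps (9 higher, 4 lower). With the nuclease these medians were −0.017 (4 higher, 4 lower) and 0.029 (9 higher, 4 lower). The difference between the parts was not tested. With the nuclease the sterol gene with the smallest p was HSD17B7, which reduces the keto group of a sterol intermediate after demethylation. It was at 33.3, 32.2 and 33.4 CPM in nuclease-SMARCA4, against 37.9, 42.6 and 42.7 CPM in nuclease-NT. The groups did not overlap, and the 3 libraries with the SMARCA4 guide lay close together. The log2 fold change was −0.32 (SE 0.0787, unadjusted p = 0.00138, adjusted p = 0.2), a change of −19.7%, with an interval from −0.49 to −0.15. It did not pass the edgeR test. It passed that of DESeq2 (adjusted p = 0.0476) and also passed when only the 6 nuclease libraries were fitted (adjusted p = 0.0383), where 3.57% of all genes were called. The adjusted p was 0.0682 to 0.697 for the same gene under all other alternatives, which changed the scaling, test, filter, block, length trend or transcripts counted or left out 1 library. With YTHDF2 the value of HSD17B7 was of the opposite sign, at 38.1, 37.0 and 39.3 CPM in YTHDF2-SMARCA4, against 36.5, 34.4 and 33.2 CPM in YTHDF2-NT. The YTHDF2 guide effect minus the nuclease guide effect was 0.45 (SE 0.111, unadjusted p = 0.00123, adjusted p = 0.26), which did not pass.

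HSD17B7 (chr1:162790702-162812817, plus strand, GRCh38, GENCODE 29) shares sequence with HSD17B7P2, a transcribed unprocessed pseudogene at chr10:38356380-38378505, and 22.5% of the 31-base words of its transcripts also occur there. HSD17B7P2 was at 5.91, 10.1 and 6.98 CPM in nuclease-SMARCA4, against 17.9, 16.4 and 16.3 CPM in nuclease-NT. Every library with the SMARCA4 guide was below every library with the NT guide. The log2 fold change was −1.13 (SE 0.195, unadjusted p = 5.53e-05, adjusted p = 0.111), larger than that of the coding gene, and also short of the threshold. In YTHDF2-SMARCA4 it was at 8.74, 12.9 and 14.0 CPM, against 12.4, 10.8 and 12.7 CPM in YTHDF2-NT, and the groups overlapped, with a log2 change of −0.0023 (SE 0.19, adjusted p = 0.997). Summed over gene and pseudogene, the log2 fold change with the nuclease was −0.51 (adjusted p = 0.0649). The counts of HSD17B7 itself were divided between a protein-coding model and a processed-transcript model. The coding model was at 18.3, 15.6 and 18.8 CPM in nuclease-SMARCA4, against 18.9, 21 and 24.2 CPM in nuclease-NT. The processed-transcript model was at 14.6, 16.5 and 14.5 CPM in nuclease-SMARCA4, against 18.2, 20.1 and 16.6 CPM in nuclease-NT. The groups did not overlap in either model but came close in both. In the coding model nuclease-SMARCA4 3 lay just below nuclease-NT 1, and in the other nuclease-SMARCA4 2 lay just below nuclease-NT 3.

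SC5D, which introduces a double bond into the sterol ring shortly before cholesterol is reached, had the smallest p among sterol genes with YTHDF2. It was at 79.3, 74.3 and 76.2 CPM in YTHDF2-SMARCA4, against 54.1, 65.6 and 66.8 CPM in YTHDF2-NT. Each library with the SMARCA4 guide was above every library with the NT guide. The log2 fold change was 0.30 (SE 0.0969, unadjusted p = 0.00829, adjusted p = 0.703), which did not pass. In nuclease-SMARCA4 SC5D was at 66.9, 56.9 and 58.2 CPM, against 68.5, 64.0 and 58.1 CPM in nuclease-NT, and the groups overlapped. The difference of the guide effects was 0.37 (SE 0.138, unadjusted p = 0.0187, adjusted p = 0.405). DHCR7, the reductase of a last step to cholesterol, was at 89.5, 91.6 and 84.6 CPM in YTHDF2-SMARCA4, against 80.2, 75.1 and 78.1 CPM in YTHDF2-NT. Its groups did not overlap, and the log2 fold change was 0.19 (SE 0.0681, unadjusted p = 0.0165, adjusted p = 0.703). PMVK, the phosphomevalonate kinase, had lower values, at 34.6, 34.9 and 40.6 CPM in YTHDF2-SMARCA4, against 62.6, 36.7 and 43.5 CPM in YTHDF2-NT. Its groups overlapped, replicate 1 of YTHDF2-NT alone was high, and the log2 fold change was −0.37 (SE 0.152, adjusted p = 0.703). MSMO1, the fourth member with p below 0.05 in the nuclease comparison beside HSD17B7, INSIG1 and FADS1, was at 72.8, 68.5 and 62.3 CPM in nuclease-SMARCA4, against 58.5, 58.7 and 62.1 CPM in nuclease-NT, with a log2 change of 0.19 (SE 0.0789, adjusted p = 0.413).

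**Figure D3:**
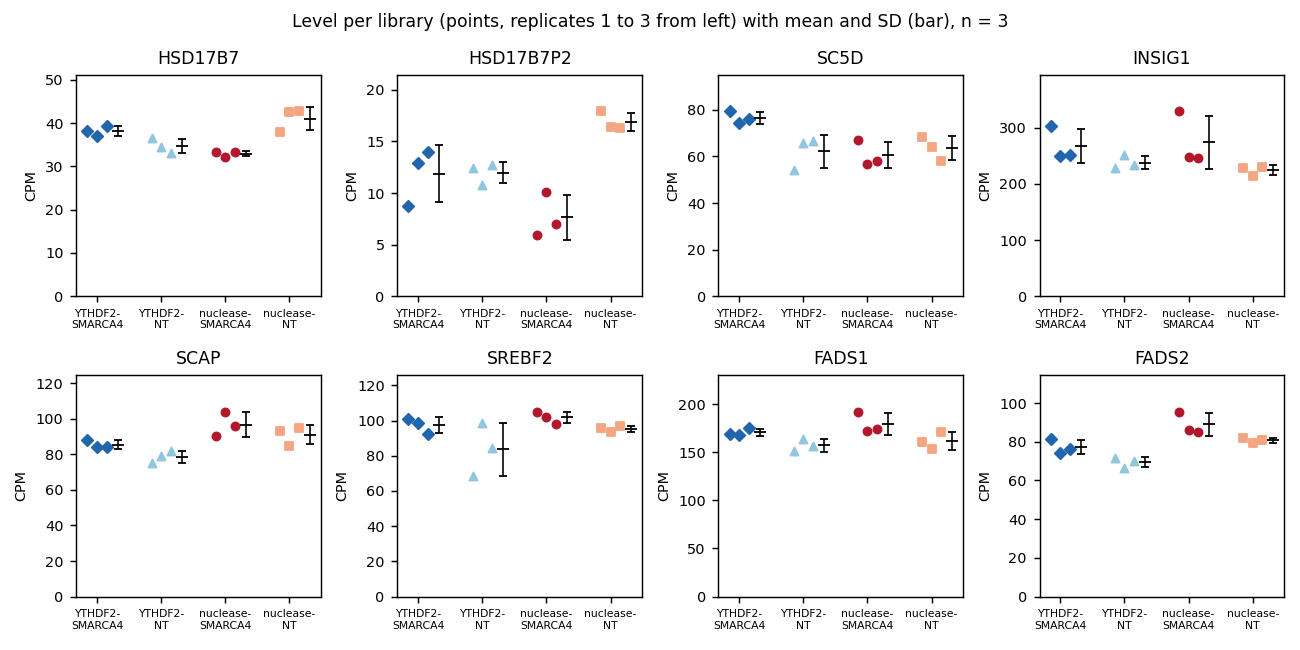
Level in CPM, from 0, of 7 of the 34 genes and of the pseudogene HSD17B7P2, with one point per library and the mean and SD (n = 3) beside each group. HSD17B7 and HSD17B7P2 are lowest in nuclease-SMARCA4, SC5D is highest in YTHDF2-SMARCA4, and FADS2 is lowest in YTHDF2-NT, none past the test.

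For the fatty acid genes the median log2 fold change was 0.11 in nuclease-SMARCA4 over nuclease-NT (5 higher, 3 lower) and 0.081 in YTHDF2-SMARCA4 over YTHDF2-NT (8 higher, 0 lower). None of the 8 was called in either. With the nuclease the smallest p was that of FADS1, the delta-5 desaturase of polyunsaturated fatty acids, at 192, 172 and 174 CPM in nuclease-SMARCA4, against 161, 153 and 171 CPM in nuclease-NT. The groups came close, with the lowest SMARCA4-guide library just above the highest NT-guide library, and the log2 fold change was 0.15 (SE 0.069, unadjusted p = 0.0471, adjusted p = 0.449). With YTHDF2 it was that of FADS2, the delta-6 desaturase, at 81.2, 74.1 and 76.2 CPM in YTHDF2-SMARCA4, against 71.5, 66.5 and 70.2 CPM in YTHDF2-NT. The groups did not overlap, and the log2 fold change was 0.15 (SE 0.0706, unadjusted p = 0.0507, adjusted p = 0.703). SCD was at 755, 653 and 630 CPM in YTHDF2-SMARCA4, against 549, 684 and 581 CPM in YTHDF2-NT, and at 807, 679 and 634 CPM in nuclease-SMARCA4, against 634, 632 and 647 CPM in nuclease-NT. SCD groups overlapped in both comparisons, and replicate 1 was the highest library of both SMARCA4-guide groups. FASN was at 202, 203 and 192 CPM in nuclease-SMARCA4, against 221, 209 and 214 CPM in nuclease-NT, without overlap, and at a log2 change of −0.11 (SE 0.107, adjusted p = 0.75).

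Whether the guide acted differently with the 2 effectors was tested directly, as the YTHDF2 guide effect minus the nuclease guide effect. None of the 34 genes passed, against 0% of all genes, and 3 had an unadjusted p below 0.05 (HSD17B7, SC5D and GGPS1), against 11.1% of all genes. GGPS1 had a difference of −0.20 (SE 0.0888, adjusted p = 0.439). Its level was 125, 132 and 122 CPM in YTHDF2-SMARCA4, against 139, 130 and 137 CPM in YTHDF2-NT, and 134, 128 and 129 CPM in nuclease-SMARCA4, against 120, 117 and 126 CPM in nuclease-NT. The median difference was −0.0076 for the sterol genes and 0.020 for the fatty acid genes, both close to that of all genes, −0.0046. The interval of the difference lay within 1.5-fold for 26 of the 34 genes and within 2-fold for all of them.

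The effectors were next compared under the same guide. In YTHDF2-NT over nuclease-NT, 0 of 34 were called, against 0.0491% of all genes, and 5 had an unadjusted p below 0.05, against 10.9%. The libraries did not overlap for 6 of the 34 (1 higher and 5 lower in YTHDF2-NT), against 12.8% of all genes. SCAP, the SREBP escort, was at 75.3, 78.9 and 81.9 CPM in YTHDF2-NT, against 93.4, 85 and 95 CPM in nuclease-NT, with a log2 fold change of −0.21 (SE 0.0745, unadjusted p = 0.0139, adjusted p = 0.334). HSD17B7 was at 36.5, 34.4 and 33.2 CPM in YTHDF2-NT, against 37.9, 42.6 and 42.7 CPM in nuclease-NT, with a log2 fold change of −0.24 (SE 0.0786, unadjusted p = 0.00857, adjusted p = 0.303). FADS2 was at 71.5, 66.5 and 70.2 CPM in YTHDF2-NT, against 81.9, 79.3 and 80.9 CPM in nuclease-NT, with a log2 fold change of −0.22 (SE 0.0709, unadjusted p = 0.00884, adjusted p = 0.307). In all 3 genes every YTHDF2-NT library lay below every nuclease-NT library. The same held for the pseudogene HSD17B7P2, at 12.4, 10.8 and 12.7 CPM in YTHDF2-NT, against 17.9, 16.4 and 16.3 CPM in nuclease-NT. The other 2 members below 0.05 were DHCR7, at a log2 change of −0.20 (SE 0.0684, adjusted p = 0.315), and GGPS1, at 0.16 (SE 0.0629, adjusted p = 0.377). The median was 0.0044 for the sterol genes (11 higher, 10 lower) and −0.074 for the fatty acid genes (1 higher, 7 lower), beside 0.0058 for all genes.

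In YTHDF2-SMARCA4 over nuclease-SMARCA4, 0 of 34 were called, against 0.00614% of all genes, and 4 had an unadjusted p below 0.05, against 11.5%. The libraries did not overlap for 6 of the 34 (2 higher and 4 lower in YTHDF2-SMARCA4), against 26.7% of all genes. SC5D had the smallest p, at 79.3, 74.3 and 76.2 CPM in YTHDF2-SMARCA4, against 66.9, 56.9 and 58.2 CPM in nuclease-SMARCA4. All 3 YTHDF2 libraries were higher, and the log2 fold change was 0.34 (SE 0.0969, unadjusted p = 0.00404, adjusted p = 0.274), with an adjusted p of 0.0224 when only these 6 libraries were fitted, where 4.25% of all genes were called. SCAP was at 88.3, 84.3 and 84.0 CPM in YTHDF2-SMARCA4, against 90.2, 104 and 95.8 CPM in nuclease-SMARCA4, with a log2 fold change of −0.17 (SE 0.0738, unadjusted p = 0.0343, adjusted p = 0.406). FADS2 was at 81.2, 74.1 and 76.2 CPM in YTHDF2-SMARCA4, against 95.5, 86.2 and 85.1 CPM in nuclease-SMARCA4, with a log2 fold change of −0.21 (SE 0.0701, unadjusted p = 0.0114, adjusted p = 0.331). SCAP and FADS2 thus had lower values with YTHDF2 under both guides, without overlap and without passing the test in either. HSD17B7 was the remaining gene below 0.05, at a log2 change of 0.21 (SE 0.0783, adjusted p = 0.366), of opposite sign to its value under the NT guide. The median was −0.029 for the sterol genes (9 higher, 12 lower) and −0.056 for the fatty acid genes (2 higher, 6 lower). The 4 comparisons share groups in pairs, so their values are not independent of each other.

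The contrast of sterol with fatty acid genes was followed library by library, as the median deviation of each list from the mean of the 12 libraries on the log2 scale. Sterol minus fatty acid medians were 0.31, −0.16 and 0.058 in YTHDF2-NT and lay between −0.14 and 0.030 in the other 9 libraries. In YTHDF2-NT 1 the sterol median was 0.073 and the fatty acid median −0.24, with 1 of 8 fatty acid genes above its mean. In YTHDF2-NT 2 the order was reversed, at −0.080 and 0.079, with 5 of 8 above. In nuclease-SMARCA4 1 all 8 fatty acid genes were above their mean, and the median was 0.17. The branches thus parted within a group, among replicates, by more than between any pair of groups.

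**Figure D4:**
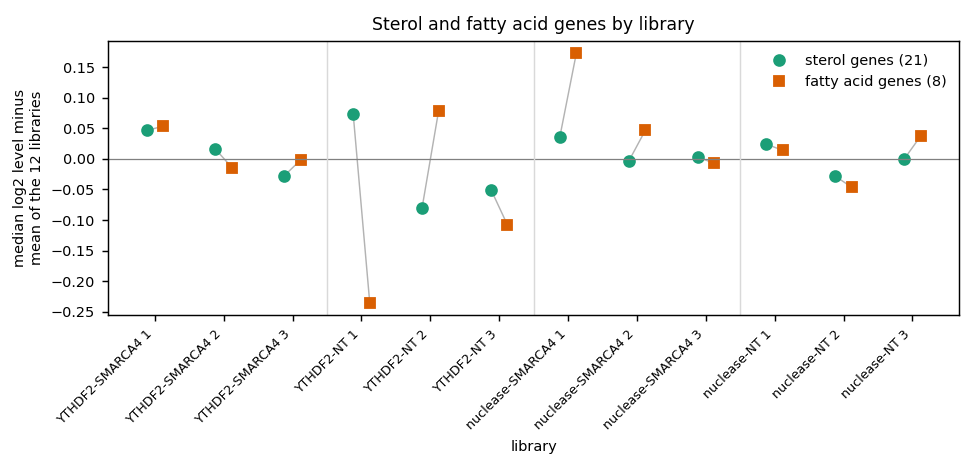
Median deviation of the 21 sterol genes (circles) and the 8 fatty acid genes (squares) from the mean of the 12 libraries, on the log2 scale, for each library. The pair lies far apart in YTHDF2-NT 1 and in the opposite order in YTHDF2-NT 2, and closer together in most other libraries.

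The 2 branches also differ in transcript length, which moved with these deviations. The median effective length was 3553 bases for the fatty acid genes and 1468 bases for the sterol genes, against 1910 bases for all genes tested. Across the 34 genes, which share libraries and are not independent replicates, the deviation ranked with effective length at a Spearman rho of −0.82, 0.62 and −0.43 in YTHDF2-NT 1, 2 and 3. Across all 16297 genes it was −0.49, 0.43 and −0.24 in the same libraries. In YTHDF2-NT 1 the short genes PMVK and EBP deviated by 0.58 and 0.51, and the long genes STARD4 and SREBF2 by −0.73 and −0.46. In YTHDF2-NT 2 the same genes deviated by −0.19, −0.28, 0.34 and 0.066. In nuclease-SMARCA4 1 the rho was 0.59 over the 34 genes and 0.036 over all genes. With the length trend of each library removed, 0 of 34 genes were called in any comparison. The fatty acid median then became 0.034 in YTHDF2-SMARCA4 over YTHDF2-NT and −0.024 in YTHDF2-NT over nuclease-NT, and that of the sterol genes 0.049 and −0.034. It was 0.12 for the fatty acid genes in nuclease-SMARCA4 over nuclease-NT. What part of each value length accounts for was otherwise not tested.

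**Figure D5:**
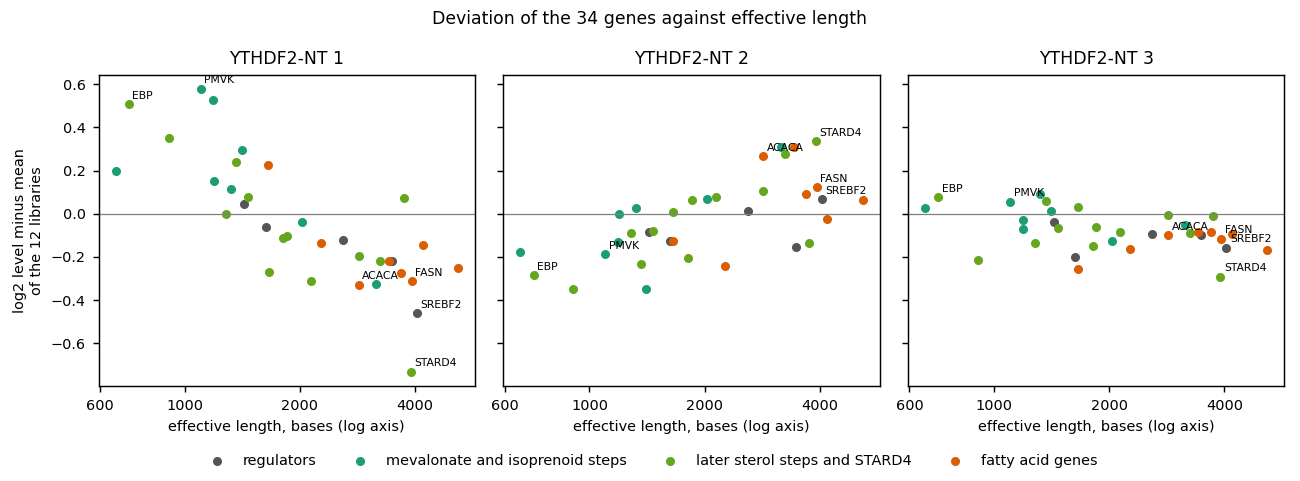
Deviation of each of the 34 genes from its mean over the 12 libraries (log2 scale) against effective length in bases (log axis) in the 3 libraries of YTHDF2-NT, coloured by role. The cloud falls with length in YTHDF2-NT 1 (Spearman rho −0.82), rises in YTHDF2-NT 2 (0.62) and falls in YTHDF2-NT 3 (−0.43).

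Most calls on single members under any alternative came with 1 library left out, the others being those of HSD17B7 and SC5D given above. Without YTHDF2-NT 2, the library with the opposite length trend, 5 members passed in YTHDF2-SMARCA4 over YTHDF2-NT: SC5D, STARD4 and SREBF2 at higher values with the SMARCA4 guide and PMVK and EBP at lower values. The fit then called 4 in YTHDF2-NT over nuclease-NT, EBP higher and STARD4, FASN and SREBF2 lower in YTHDF2-NT, and 2 in the difference of guide effects, HSD17B7 and EBP. In these 3 comparisons that fit thus called 14.7%, 11.8% and 5.88% of the 34, against 9.46%, 9.61% and 8.62% of all genes. STARD4 was at 25.5, 27.4 and 24.3 CPM in YTHDF2-SMARCA4, against 15.0, 31.5 and 20.3 CPM in YTHDF2-NT. EBP was at 75.7, 82.2 and 80.0 CPM in YTHDF2-SMARCA4, against 119, 68.7 and 88.3 CPM in YTHDF2-NT. In both genes the YTHDF2-SMARCA4 libraries lay inside the range of YTHDF2-NT, whose replicates 1 and 2 formed its extremes.

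Other genes of the pathway, 32 in number and not among the 34, gave 0 calls in every comparison, and all 32 passed the count filter. They include the SREBP proteases, fatty acid activating and elongating enzymes and electron donors. In nuclease-SMARCA4 over nuclease-NT, 21 had higher and 11 lower values, with a median of 0.082. The desaturase SCD5 had a value of 0.32 (SE 0.139, adjusted p = 0.417). In YTHDF2-SMARCA4 over YTHDF2-NT, 19 were higher and 13 lower, with a median of 0.025, and the 2 with the smallest p were MID1IP1, which stimulates the acetyl-CoA carboxylase (−0.14, SE 0.0774, adjusted p = 0.707), and the mitochondrial MCAT (−0.21, SE 0.119, adjusted p = 0.708). In YTHDF2-NT over nuclease-NT, the sterol exporter ABCG1 had a log2 change of −0.48 (SE 0.191, adjusted p = 0.387) and the carboxylase ACACB −0.28 (SE 0.158, adjusted p = 0.545). In YTHDF2-SMARCA4 over nuclease-SMARCA4, ABCG1 was at −0.59 (SE 0.182, adjusted p = 0.3), at 5.25, 6.11 and 5.78 CPM, against 7.22, 7.75 and 11 CPM, without overlap. POR, the reductase that feeds electrons to CYP51A1 and SQLE, was at −0.27 (SE 0.0913, adjusted p = 0.331).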

How the data were processed

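Polyadenylated RNA of 12 HEK-293T samples was sequenced from KAPA mRNA HyperPrep libraries, per the labels' protocols. The authors deposited 1 table per sample with estimated counts and TPM for each of 200403 targets. Per the submitters' processing notes these were made with kallisto, with sleuth and hg38 also named and no versions. Kallisto divides reads among models that share sequence, so close copies and overlapping genes can trade counts. The deposited TPM values, per the file headers length-normalized, keep no depth and were used only for levels between genes. Estimated counts were summed per gene ID and rounded. edgeR 4.0.16 (R 4.3.3) fitted 1 mean per group over all 12 libraries with TMM, filterByExpr and the quasi-likelihood test, two-sided, leaving 16297 genes and 8 residual degrees of freedom. CPM are scaled by TMM-adjusted totals. A SE is the size of the unshrunk log2 fold change divided by the root of the F statistic, and 95% intervals use the t distribution. The log2 fold changes given are those that edgeR reports, which include its prior count. Precision is limited by 3 libraries per group, and the spread behind each p-value may be partly technical. In bulk RNA, fewer cells and less RNA per cell cannot be told apart. Alternatives used DESeq2 1.42.0, limma 3.58.1 (voom), other scaling, no filter, only the 6 libraries compared, a replicate block, removal of a length trend (lowess, span 0.3), length-scaled TPM, protein-coding models, each library left out, and, chosen after seeing the data, the sum of HSD17B7 and HSD17B7P2. Members and lists were chosen with earlier results of these data known. Values in every library were given for the member with the smallest unadjusted p among regulators, sterol genes and fatty acid genes in each comparison of 2 groups and for the 2 other pathway genes with the smallest p as fold changes, with copies of a member beside it. A gene that this rule names is not reported here. Members such as SREBF1, PMVK, DHCR7, GGPS1, MSMO1, SCD, FASN, STARD4 and EBP were described beyond this rule after their values were seen. Coordinates are GENCODE 29 (GRCh38), matched by gene ID without version for 4 members.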

Additional observations from a re-analysis of the deposited data

How the results depend on the processing

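Of 109 counts of members called under alternatives, 103 matched the count of 0. DESeq2 gave 1 in nuclease-SMARCA4 over nuclease-NT (HSD17B7). Fits to only the 6 libraries compared gave 1 there (HSD17B7) and 1 in YTHDF2-SMARCA4 over nuclease-SMARCA4 (SC5D). With each library left out in turn the count was 0 to 5 in YTHDF2-SMARCA4 over YTHDF2-NT, 0 to 4 in YTHDF2-NT over nuclease-NT and 0 to 2 in the difference of guide effects. All counts above 0 in that set came without YTHDF2-NT 2, and 0 was found in the other 2 comparisons. Of 218 medians, 214 moved by less than the spread between replicates. That spread was the SD of the library medians within groups, 0.0477 for the sterol genes and 0.0957 for the fatty acid genes. Every sterol median was smaller in size than this SD, so a sterol median could change sign and still count among the 214. Medians of the fatty acid genes ran from 0.056 to 0.19, −0.18 to −0.011 and −0.019 to 0.12 in those 3 comparisons with a library left out, and the sterol median of the difference of guide effects from −0.024 to 0.059. Of 440 values of named genes, 433 kept their direction and side of the threshold, 0 reversed and 7 passed it. The cause of these changes was not tested. Same-numbered libraries of different groups correlated at −0.20 to 0.055 across genes, so the numbers were not taken as pairs. With the replicate number as a block, 0 members were called in each comparison. Totals began at 9207196 counts, and the interval bound farthest from no change was that of STARD4, PMVK or MVD, depending on the comparison.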

Other observations

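In both groups with the SMARCA4 guide, replicate 1 held the highest library for many members, a pattern noticed after the values were seen. It did so for 20 of 34 in YTHDF2-SMARCA4 (58.8%, against 36.3% of all genes) and for 22 of 34 in nuclease-SMARCA4 (64.7%, against 31.5% of all genes). Both applied to 14 members (41.2%, against 14.7% of all genes): SREBF2, INSIG1, INSIG2, HMGCS1, IDI1, FDFT1, SQLE, LSS, CYP51A1, MSMO1, SC5D, SCD, ELOVL6 and FADS2. INSIG1 was at 303 CPM in YTHDF2-SMARCA4 1 and 329 CPM in nuclease-SMARCA4 1, and at 214 to 251 CPM in the other 10 libraries. SCD was at 755 and 807 CPM in these libraries, and at 549 to 684 CPM in the other 10. Among regulators INSIG2 was at 30.6 and 27.9 CPM, against 20.1 to 24.1 CPM elsewhere. No label ties these libraries to each other. Their deviations from their group means correlated across the 34 members at 0.47, the highest of the 18 same-numbered pairs, which ran from −0.57, while the 36 pairs of other numbers ran from −0.51 to 0.56. The 34 members share libraries and are not independent.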
